A study of Mus musculus with 10 samples.

Results

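The leukocyte markers examined here were 38 genes that are used to recognise T cells, natural killer (NK) cells and myeloid cells, or white blood cells of every kind, followed in the lactating mammary gland of 2 mouse strains. A probeset, the group of array probes that reads one transcript, was taken as a member where the annotation gave it exactly 1 gene symbol and that symbol was on the list. This gave 51 probesets of 37 genes, out of 22626 probesets other than controls. They comprised 19 lymphoid probesets of 15 genes, 21 myeloid probesets of 16 genes and 11 pan-leukocyte probesets of 6 genes. Lck, the kinase that starts T cell receptor signalling, had no such probeset and was not analysed here.

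RNA came from 5 QSi5 and 5 CBA mice at day 9 of lactation, with 1 array per mouse. Both are inbred strains that the study compared for maternal performance. Neither carried a transgene or deletion, and no treatment other than weaning is named. The labels name the inguinal gland and forced weaning before collection, while the methods name the right inguinal gland and no weaning of these mice. The age at collection is not given in the labels. Pieces of whole gland were extracted, so each value pools epithelium, fat, vessels, blood and any lymph node tissue in the piece. In each strain 3 mice were hybridised to MOE430 2.0 chips (QSi5 replicates 3, 4 and 5, and CBA replicates 1, 4 and 5) and 2 mice to MOE430A 2.0 chips, and values are log2 intensities by RMA (robust multi-array average).

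As background, a T cell recognises antigen through its receptor, which signals through the CD3 chains to the kinases Lck and Zap70, while Cd4 and Cd8a are the co-receptors that divide T cells into helper and cytotoxic cells. Macrophages depend on the receptor Csf1r, and they are resident in mammary stroma throughout the reproductive cycle. The inguinal fat pad of the mouse also encloses a lymph node, an organ packed with T and B lymphocytes.

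Over all probesets the array medians lay between 4.212 and 4.304. Quantile normalization, part of the processing, brings array medians together, so they cannot show how alike the arrays were before it. The median correlation of an array with the others of its strain was lowest, at 0.972, for CBA replicate 3, against up to 0.988 elsewhere. CBA replicate 3 also had the largest difference between probes at the 3′ and 5′ ends of control transcripts, a measure that grows with RNA degradation. This was 3.28 for Gapdh and 3.998 for Actb, against 1.11 to 2.29 and 1.63 to 3.23 in the other 9 mice. QSi5 replicate 4 had 1.52 and 2.09, within the range of the others. Of 15 tested probesets of milk and luminal epithelial genes, 3 passed a limma adjusted p of 0.05, beside 2.94% of all probesets tested. All 3 were lower in QSi5 and belonged to 1 gene, the keratin Krt8 (log2 differences -0.83, -0.75 and -0.87). The median difference of the list was -0.06 and its other 12 probesets did not pass.

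None of the leukocyte markers passed the test of a strain difference, which does not show that the strains were alike. Of the 51 member probesets, 27 in 21 genes exceeded an unlogged mean of 20 in at least 1 strain and were tested with limma, and 0 passed an adjusted p of 0.05. Over all 11412 probesets tested, 336 passed, or 2.94%, comprising 164 higher in QSi5 (1.44%) and 172 lower (1.51%). Unadjusted, 0 of the 27 had a p under 0.05, against 15.1% of all probesets, and the methods' t-test gave 0 member calls after the same adjustment. The strains overlapped at every one of the 51 member probesets, whereas 3.47% of all probesets, and 5.14% of those tested, did not overlap. Member calls were also 0 without QSi5 replicate 4 (2.24% of all probesets called), without CBA replicate 3 (2.55%), without both mice (2.16%) and with no intensity minimum (1.48%). The lowest adjusted p was 0.333, for Nkg7. What the members did show was a large departure of single mice from their own strain, above all of QSi5 replicate 4, as the heat map of deviations shows. In bulk tissue a change in the number of cells of a type and a change in RNA per cell cannot be told apart.

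**Figure D1:**
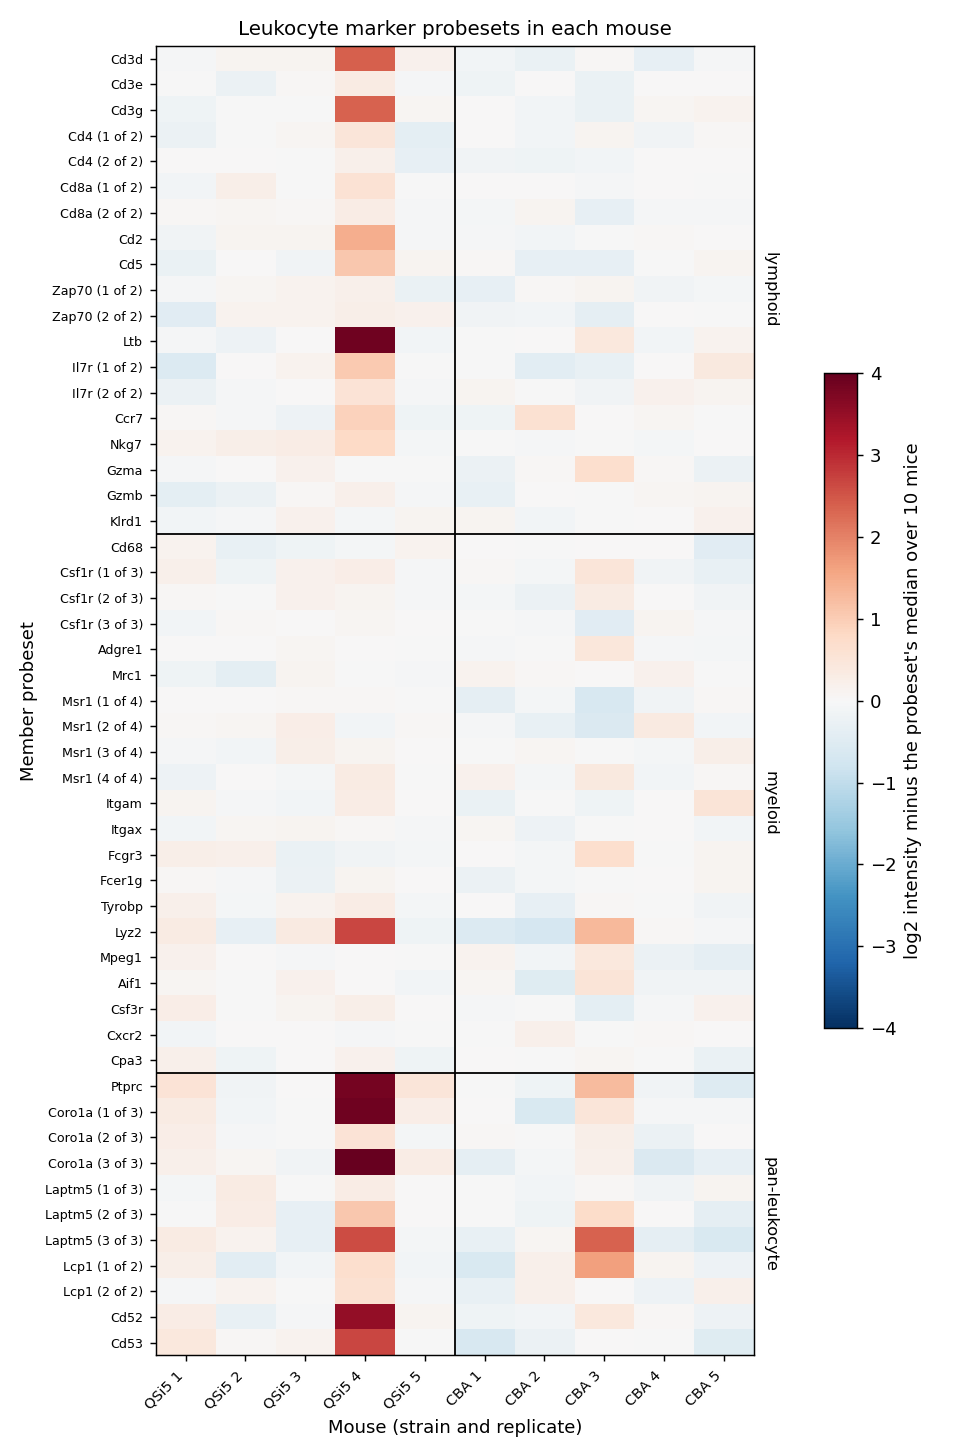
Heat map of the 51 member probesets (rows, grouped into lymphoid, myeloid and pan-leukocyte) in the 10 mice (columns, QSi5 left of CBA), coloured by log2 intensity minus the probeset's median over the 10 mice. The column of QSi5 replicate 4 is the highest in 17 of 19 lymphoid and 9 of 11 pan-leukocyte rows but in 3 of 21 myeloid rows, and CBA replicate 3 is the highest in 7 myeloid rows.

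Among the chains of the T cell receptor complex, Cd3d and Cd3g moved together in 1 mouse. Cd3d had log2 intensities of 3.66, 3.82, 3.82, 6.09 and 3.89 in QSi5 replicates 1 to 5, against 3.58, 3.44, 3.74, 3.37 and 3.66 in CBA replicates 1 to 5. Cd3g had 2.59, 2.76, 2.75, 5.11 and 2.83 in QSi5 mice, against 2.76, 2.66, 2.48, 2.83 and 2.90 in CBA mice. QSi5 replicate 4 stood 2.27 above the median of the other QSi5 mice for Cd3d and 2.35 for Cd3g, while the other 9 mice spanned 3.37 to 3.89 and 2.48 to 2.90. Neither probeset reached the intensity minimum.

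The third chain, Cd3e, reached the intensity minimum and moved far less. It had 6.81, 6.59, 6.87, 7.16 and 6.76 in QSi5 mice, against 6.65, 6.84, 6.54, 6.85 and 6.85 in CBA mice, a log2 difference of 0.09 (SE 0.12, limma adjusted p = 0.786). QSi5 replicate 4 was again the highest, but by 0.29 over the next mouse. The probesets of these partner chains therefore gave different pictures of the same gland.

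The co-receptors did not reach the intensity minimum and had a narrow range. Cd4 lay between 3.68 and 4.56 on one probeset and between 2.93 and 3.48 on the other, and Cd8a between 3.10 and 3.79 and between 3.42 and 4.03. QSi5 replicate 4 gave the highest value on all 4 of these probesets. The strain means of Cd4 on its brighter probeset were 4.06 ± 0.34 in QSi5 and 4.06 ± 0.11 in CBA (SD, n = 5 each).

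Cd2 and Cd5, surface proteins that tune adhesion and receptor signalling in T cells, followed Cd3d and Cd3g. Cd2 had 3.03, 3.27, 3.26, 4.63 and 3.12 in QSi5 mice, against 3.13, 3.06, 3.15, 3.21 and 3.17 in CBA mice. Cd5 had 2.80, 3.08, 2.92, 4.12 and 3.15 in QSi5 mice, against 3.10, 2.72, 2.72, 3.03 and 3.15 in CBA mice. Apart from QSi5 replicate 4 the strains interleaved in both genes. Zap70, the kinase recruited to phosphorylated CD3 chains, did not follow them. Its brighter probeset had 5.67, 6.27, 6.28, 6.36 and 6.30 in QSi5 mice, against 5.98, 6.03, 5.78, 6.16 and 6.12 in CBA mice (log2 difference 0.16, SE 0.14, limma adjusted p = 0.649). Here the mouse that stood apart was QSi5 replicate 1, the lowest of the 10, and the second Zap70 probeset lay between 4.0 and 4.54 with the strains overlapping. QSi5 replicate 4 was the highest on both Zap70 probesets, but by only 0.06 over the next mouse on each.

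Of the genes for lymphocyte survival and homing, Ltb showed the widest departure among the lymphoid members. Ltb encodes lymphotoxin beta, a ligand on lymphocytes that organises lymphoid tissue. It had 3.14, 2.97, 3.19, 7.07 and 3.06 in QSi5 mice, against 3.18, 3.20, 3.60, 3.06 and 3.34 in CBA mice, so that QSi5 replicate 4 exceeded the median of the other QSi5 mice by 3.97. Ccr7, the receptor that guides T cells into lymph nodes, had 3.61, 3.53, 3.37, 4.5 and 3.40 in QSi5 mice, against 3.41, 4.18, 3.59, 3.66 and 3.56 in CBA mice, where replicate 2 came second. Il7r, the receptor of the survival cytokine interleukin-7, reached 4.36 in QSi5 replicate 4 on its brighter probeset, against 2.77 to 3.71 in the other 9 mice. The strains overlapped in each of these genes, both with and without QSi5 replicate 4.

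The cytotoxic and NK members were less affected. Nkg7, a granule membrane protein of cytotoxic lymphocytes, had 4.40, 4.48, 4.54, 5.04 and 4.18 in QSi5 mice, against 4.25, 4.2, 4.23, 4.18 and 4.26 in CBA mice. This was the member nearest to a strain difference, at 0.30 on the log2 scale (SE 0.14, limma unadjusted p = 0.0506, adjusted p = 0.333). It stood at 0.18 without QSi5 replicate 4 (adjusted p = 0.521). Gzma, a granule protease, had 4.62, 4.69, 4.83, 4.64 and 4.63 in QSi5 mice, against 4.43, 4.72, 5.33, 4.71 and 4.45 in CBA mice. The highest mouse was CBA replicate 3, and QSi5 replicate 4 sat among the others (log2 difference -0.05, SE 0.16, limma adjusted p = 0.924). Gzmb, another granule protease, ranged from 3.65 to 4.25, and Klrd1, which encodes the NK receptor chain CD94, from 2.74 to 3.04.

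Taking the class as a whole, QSi5 replicate 4 was the highest of the 10 mice at 17 of 19 lymphoid probesets, or 89.5%, whereas it was the highest at 12.8% of all probesets. The median lymphoid deviation from the 10-mouse median was 0.56 in that mouse, against -0.12 to 0.06 in the other 9. Lymphoid probesets had a median log2 strain difference of 0.13, with 16 of 19 higher in QSi5, against 0.01 and 53.7% over all probesets. Without QSi5 replicate 4 the median was 0.01 with 11 of 19 higher, beside 0.01 and 51.5% over all probesets. Only 5 lymphoid probesets, of Cd3e, Zap70, Nkg7 and Gzma, passed the intensity minimum, so 11 of the 15 lymphoid genes were not tested between the strains.

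More of the myeloid probesets, 13 of 21, reached the intensity minimum, and few of them followed QSi5 replicate 4. Csf1r, the receptor for the growth factor that macrophages depend on, had 7.09, 6.70, 7.03, 7.15 and 6.83 in QSi5 mice on its brightest probeset, against 6.92, 6.78, 7.35, 6.74 and 6.58 in CBA mice (log2 difference 0.09, SE 0.15, limma adjusted p = 0.842). Adgre1, which encodes the macrophage surface marker F4/80, had 5.98, 5.97, 6.04, 5.96 and 5.94 in QSi5 mice, against 5.90, 5.95, 6.39, 5.90 and 5.89 in CBA mice. In both genes CBA replicate 3 was the highest mouse and QSi5 replicate 4 lay within 0.22 of the median of the other QSi5 mice. The other Csf1r probesets disagreed about CBA replicate 3, which was the highest of the 10 mice on one, at 5.63, and the lowest on the other, at 6.16.

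The scavenger receptors showed no common direction. Msr1, the class A scavenger receptor of macrophages, had 5.56, 5.56, 5.59, 5.58 and 5.54 in QSi5 mice, against 5.18, 5.48, 4.91, 5.41 and 5.58 in CBA mice on its brightest probeset. The QSi5 values were tightly grouped, 4 of the 5 CBA values lay below all of them and CBA replicate 5 lay among them, and the log2 difference of 0.25 (SE 0.13, limma adjusted p = 0.378) did not pass. Its dimmer probesets ranged from 2.13 to 4.45. Mrc1, the mannose receptor of tissue macrophages, lay between 2.86 and 3.45. Cd68, a lysosomal protein of macrophages, had 3.21, 2.77, 2.89, 2.98 and 3.22 in QSi5 mice, against 3.08, 3.05, 3.07, 3.07 and 2.61 in CBA mice, where replicate 5 was low.

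Integrins and Fc receptor components differed little. Itgam, the alpha chain of the myeloid integrin Mac-1, lay between 2.62 and 3.40, and Itgax, the alpha chain that marks dendritic cells and some macrophages, between 4.14 and 4.47. Fcgr3, a receptor for immunoglobulin G, had 4.33, 4.27, 3.81, 3.94 and 4.01 in QSi5 mice, against 4.10, 4.01, 4.76, 4.07 and 4.19 in CBA mice, with CBA replicate 3 again the highest. Fcer1g and Tyrobp, the adaptors that carry signals from Fc and other myeloid and NK receptors, had log2 differences of 0.01 (SE 0.10, limma adjusted p = 0.979) and 0.19 (SE 0.11, adjusted p = 0.489).

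Lyz2, the lysozyme of macrophages and neutrophils, was the only myeloid member in which QSi5 replicate 4 stood more than 1 log2 unit above every other mouse. It had 6.37, 5.73, 6.40, 8.72 and 5.88 in QSi5 mice, against 5.49, 5.38, 7.33, 6.08 and 6.01 in CBA mice. The second highest mouse was CBA replicate 3. Its strain difference of 0.56 (SE 0.53, limma adjusted p = 0.678) became 0.04 without QSi5 replicate 4. Lyz1 is a near-identical copy, and both Lyz1 probesets that stood apart in the same mouse (7.94 and 10.07, against at most 6.12 and 8.31 in the others) could share signal with it.

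Mpeg1 and Aif1 repeated the pattern of Csf1r and Adgre1. Mpeg1, a pore-forming protein of macrophages, had 6.40, 6.24, 6.18, 6.25 and 6.21 in QSi5 mice, against 6.35, 6.12, 6.64, 5.97 and 5.86 in CBA mice. Aif1, an actin-binding protein of macrophages, had 4.78, 4.70, 4.89, 4.73 and 4.60 in QSi5 mice, against 4.79, 4.23, 5.22, 4.58 and 4.58 in CBA mice. CBA replicate 3 was the highest in both, while the QSi5 mice lay close together. The granulocyte receptors Csf3r and Cxcr2 had log2 differences of 0.18 (SE 0.11, limma adjusted p = 0.504) and -0.07 (SE 0.09, adjusted p = 0.779), and the mast cell protease Cpa3 lay between 3.30 and 3.77.

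Over the myeloid class, CBA replicate 3 was the highest mouse at 7 of 21 probesets, or 33.3%, against 14.0% of all probesets, and at none by more than 1 log2 unit. QSi5 replicate 4 was the highest at 3 of 21, against 12.8% of all probesets. The median deviation of the class lay between -0.02 and 0.09 in QSi5 mice and between -0.07 and 0.01 in CBA mice. The median log2 strain difference was 0.06, with 15 of 21 higher in QSi5, and it was 0.04 without QSi5 replicate 4. For the myeloid members, therefore, that mouse altered little apart from Lyz2.

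The pan-leukocyte genes also departed widely in single mice. Ptprc, which encodes the common leukocyte antigen CD45, had 4.83, 4.13, 4.29, 8.10 and 4.78 in QSi5 mice, against 4.27, 4.12, 5.56, 4.13 and 3.77 in CBA mice. Coro1a, an actin regulator of blood cells, had 4.56, 4.46, 4.23, 8.39 and 4.66 in QSi5 mice on its brightest probeset, against 4.0, 4.28, 4.56, 3.79 and 4.03 in CBA mice. Cd52, a small glycoprotein abundant on lymphocytes, had 5.46, 4.85, 5.10, 8.67 and 5.25 in QSi5 mice, against 4.99, 5.03, 5.59, 5.21 and 4.94 in CBA mice. In each gene QSi5 replicate 4 was at least 2.54 above the next mouse, and the remaining QSi5 mice overlapped CBA.

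Cd53, a leukocyte tetraspanin, had 4.15, 3.77, 3.88, 6.42 and 3.73 in QSi5 mice, against 3.10, 3.49, 3.74, 3.73 and 3.25 in CBA mice. Here the other QSi5 mice also lay in the upper part of the range, and the log2 difference was 0.93 (SE 0.44, limma adjusted p = 0.343) with all mice and 0.42 without QSi5 replicate 4, when the probeset no longer reached the intensity minimum. The differences of Coro1a (1.13, SE 0.65, adjusted p = 0.468), Ptprc (0.86, SE 0.65, adjusted p = 0.599) and Cd52 (0.72, SE 0.59, adjusted p = 0.631) became 0.35, 0.14 and 0.01 without that mouse. The spread in QSi5 was wide, with an SD of 1.76 for Coro1a in QSi5 against 0.29 in CBA. A second Coro1a probeset had 8.04 in QSi5 replicate 4 and at most 4.62 in the other mice, and the remaining one, under the intensity minimum, had 2.91 and at most 2.63.

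Lcp1 and Laptm5 were raised in both of the mice that stood apart. Lcp1, the actin-bundling protein L-plastin, had 6.58, 5.93, 6.23, 7.01 and 6.23 in QSi5 mice on its brighter probeset, against 5.75, 6.55, 8.0, 6.46 and 6.15 in CBA mice. Laptm5, a lysosomal protein of blood cells, had 5.78, 6.11, 5.48, 6.88 and 5.83 in QSi5 mice on its brightest probeset, against 5.80, 5.65, 6.54, 5.81 and 5.43 in CBA mice. The highest Lcp1 value was that of CBA replicate 3, but on the second Lcp1 probeset this mouse had 5.77, inside the CBA range. A dim Laptm5 probeset had 4.07, 3.88, 3.42, 6.35 and 3.66 in QSi5 mice, against 3.45, 3.82, 6.10, 3.38 and 3.13 in CBA mice, with both mice far from the rest, while the remaining Laptm5 probeset lay between 5.56 and 6.01 in all mice.

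**Figure D2:**
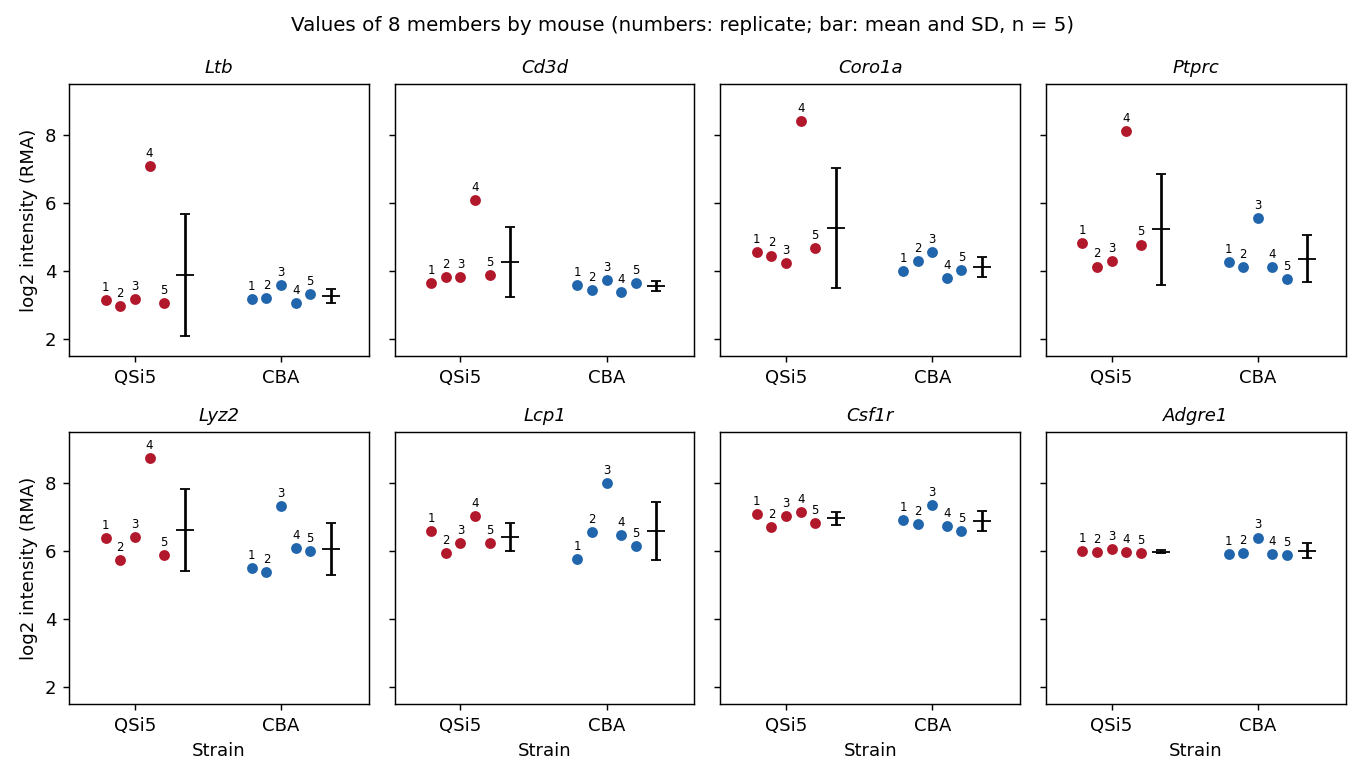
Log2 intensities of 8 members in each of the QSi5 (left) and CBA (right) mice, with replicate numbers above the points and the mean and SD of 5 mice as a black bar. Ltb, Cd3d, Coro1a, Ptprc and Lyz2 have QSi5 replicate 4 far above the other mice (7.07, 6.09, 8.39, 8.10 and 8.72), whereas Lcp1, Csf1r and Adgre1 are highest in CBA replicate 3 (8.0, 7.35 and 6.39).

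For the pan-leukocyte class as a whole the median deviation was 2.61 in QSi5 replicate 4 and 0.43 in CBA replicate 3, against -0.21 to 0.25 in the other 8 mice. The median log2 strain difference of 0.30 became 0.02 without QSi5 replicate 4 and 0.82 without CBA replicate 3. Within MOE430 2.0 chips, where QSi5 replicate 4 lies, it was 1.16, and within MOE430A 2.0 chips, where CBA replicate 3 lies, -0.08. On the same chips the lymphoid medians were 0.21 and 0.04 and the myeloid medians 0.08 and -0.03. QSi5 replicates 3 and 5 shared the chip type of replicate 4 and had pan-leukocyte deviations of -0.03 and 0.00. The interaction of strain with chip type passed in 0 of 27 member probesets (limma, lowest adjusted p = 0.886), with 1 at an unadjusted p under 0.05. It also passed in 0 of all probesets tested, so this count says nothing particular about the members.

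**Figure D3:**
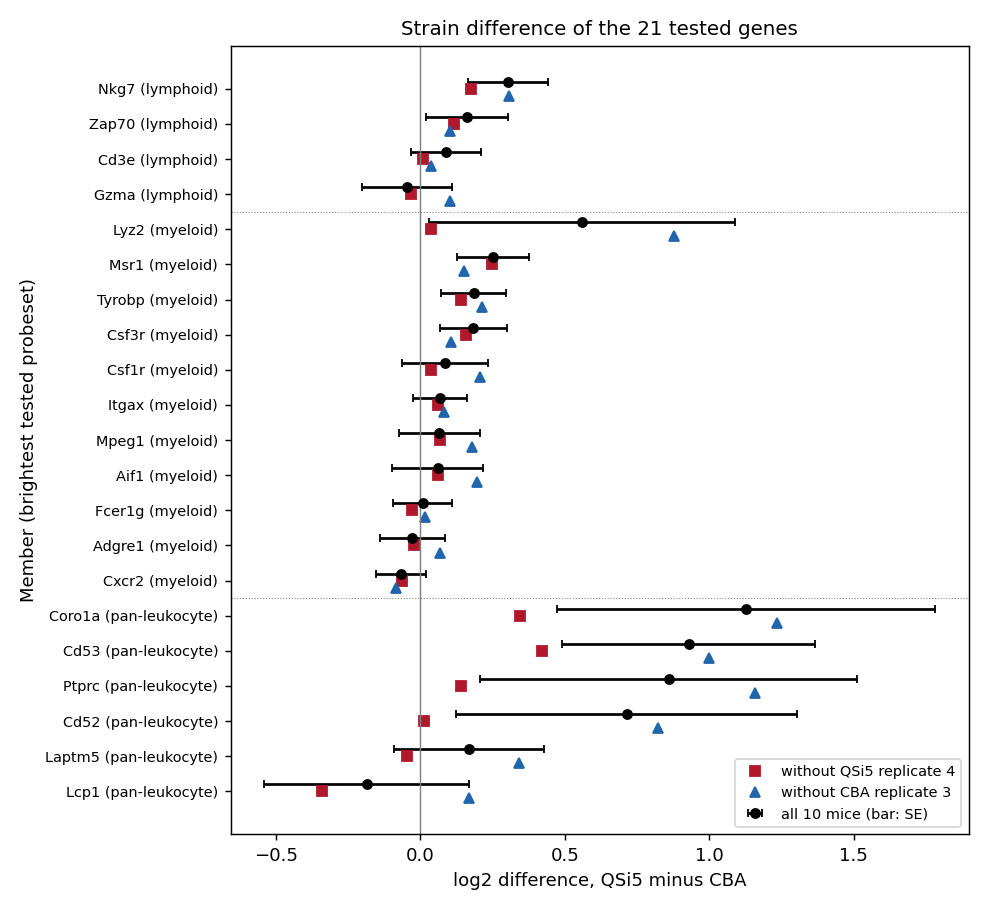
Log2 difference (QSi5 minus CBA) of the brightest tested probeset of 21 member genes, with all 10 mice (black circles, bars 1 SE), without QSi5 replicate 4 (red squares) and without CBA replicate 3 (blue triangles). Coro1a, Cd53, Ptprc, Cd52 and Lyz2 move toward 0 without QSi5 replicate 4, to 0.35, 0.42, 0.14, 0.01 and 0.04.

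QSi5 replicate 4 stood more than 1 log2 unit above every other mouse at 10 member probesets of 9 genes, or 19.6%, compared with 94 of all 22626 probesets, or 0.415%. The 9 genes were Coro1a, Ltb, Cd52, Ptprc, Cd53, Cd3g, Cd3d, Lyz2 and Cd2. No other mouse stood so far above the rest at any member probeset. Among the 94, 12 probesets of 10 genes came from a list of B and plasma cell genes. Cd79b, a signalling chain of the B cell receptor, had 3.65, 3.94, 3.78, 6.22 and 3.94 in QSi5 mice, against 3.72, 3.90, 3.63, 3.86 and 3.87 in CBA mice. Cxcl13, the chemokine that draws B cells into lymphoid follicles, had 2.79, 2.71, 2.66, 6.63 and 2.73 in QSi5 mice on one probeset, against 2.55, 2.56, 2.89, 2.68 and 2.73 in CBA mice, while a second probeset had 5.97 in QSi5 replicate 4 and 4.69 to 5.40 elsewhere. The largest gap among the 94, 3.98, was that of Ms4a4b, a membrane protein of T cells.

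Other gene lists placed the same mouse apart to different degrees. The median deviation of QSi5 replicate 4 was 0.80 for 29 B and plasma cell probesets, against -0.23 to 0.20 in the other 9 mice, and 0.27 for 32 probesets of other T and NK genes, against -0.09 to 0.06. The plasma cell genes Jchain and Tnfrsf17 did not share the rise. They had 8.38 and 3.81 in this mouse, against 8.44 to 9.42 and 3.56 to 4.11 in the other QSi5 mice. For 6 probesets of lymph node stroma and vessel the median deviation of QSi5 replicate 4 was 0.18, against -0.11 to 0.12. It was the highest mouse at 3 of these, both Cxcl13 probesets and a Lyve1 probeset. Madcam1 (3.80), Chst4 (2.49) and the other Lyve1 probeset (2.41) lay within the range of the other 9 mice, so the list did not rise as a group. Other macrophage and dendritic genes gave 0.04, inside the range of the others, and endothelial genes 0.02. QSi5 replicate 4 was still the highest at 10 of the 41 macrophage and dendritic probesets, against 12.8% of all probesets. Among these were both Irf8 probesets, at 5.87 and 6.03, against at most 4.96 and 5.10 in the other mice. The adipocyte list was lowest in this mouse, at -0.31, against -0.20 to 0.53, though Adipoq, Lep and Retn lay within the range of the other 9 mice. The milk and luminal epithelium list was also lowest in this mouse, at -0.08, against -0.06 to 0.40. Yet Wap, Lalba, Elf5, Krt18 and Epcam lay within the range of the other 9 mice, and a Csn3 probeset was highest in it, at 8.59. The part that lymphoid tissue in the extracted piece has in these values was not tested.

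**Figure D4:**
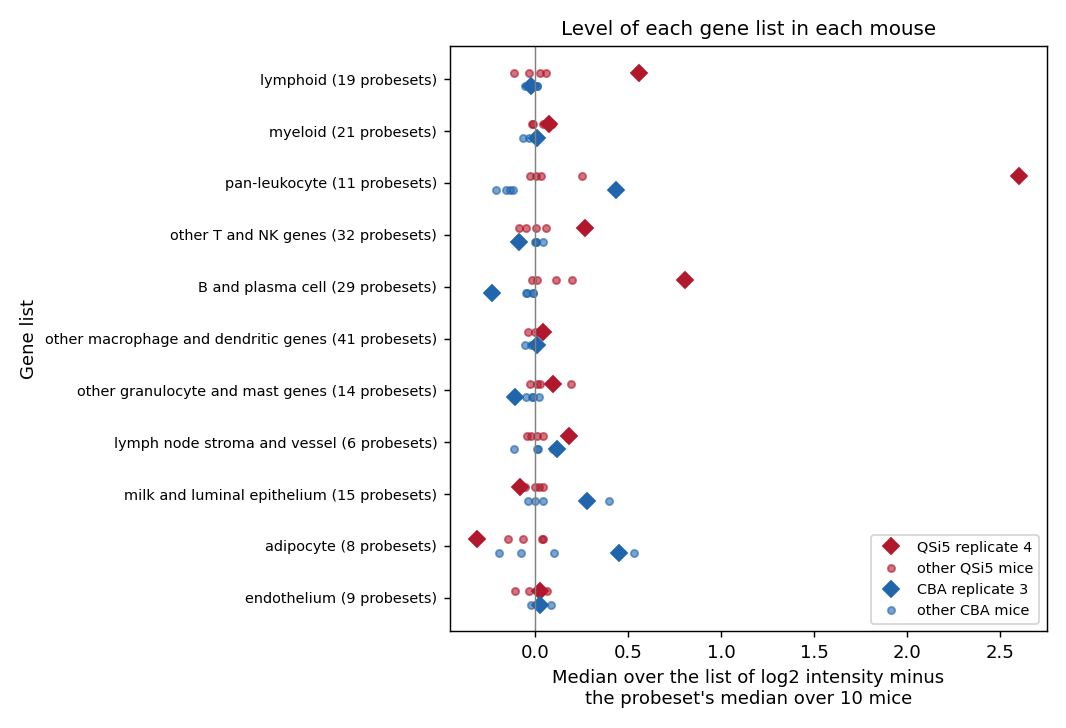
Median deviation of each gene list in each mouse, on the log2 scale relative to each probeset's median over 10 mice, with QSi5 mice in red above CBA mice in blue and diamonds for QSi5 replicate 4 and CBA replicate 3. The pan-leukocyte, B and plasma cell and lymphoid lists have QSi5 replicate 4 at 2.61, 0.80 and 0.56, outside the range of the other 9 mice, whereas the myeloid list keeps it at 0.07.

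The macrophage list held 1 gene that did differ between strains. C1qa, a chain of the complement component C1q made by macrophages, had 7.62, 6.97, 8.06, 7.70 and 8.07 in QSi5 mice, against 6.62, 6.35, 6.23, 6.99 and 6.11 in CBA mice, a log2 difference of 1.22 (SE 0.22, limma adjusted p = 0.00913). QSi5 replicate 4 lay within its strain here, and C1qa was the only called probeset among 18 tested in that list, beside 2.94% over all probesets. Its partner chains did not follow it, with log2 differences of 0.11, -0.16 and -0.43 for C1qb and -0.04 for C1qc (limma, lowest adjusted p = 0.722). Ctss, a lysosomal protease of antigen-presenting cells, had 6.15, 6.02, 6.24, 6.93 and 6.23 in QSi5 mice, against 6.54, 6.38, 7.76, 6.60 and 6.23 in CBA mice. Of the lymphocyte lists, 1 of 10 tested B and plasma cell probesets was called, and 0 of 6 tested probesets of other T and NK genes. The called one was of Ighm, the heavy chain of immunoglobulin M, and was higher in QSi5 (log2 difference 1.21, SE 0.19, limma adjusted p = 0.00291). The other tested Ighm probesets were also higher in QSi5 but did not pass (limma adjusted p from 0.133 to 0.651).

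CBA replicate 3 stood more than 1 log2 unit above every other mouse at 106 probesets, or 0.468% of all, and none of these was a member. The widest gap of these was in S100a8, a calcium-binding protein of neutrophils, which had 2.98, 3.56, 3.57, 3.08 and 3.37 in QSi5 mice, against 3.20, 3.28, 8.48, 3.31 and 3.44 in CBA mice. Its partner S100a9 had 4.17 in that mouse and 3.00 to 3.58 in the other 9. The granulocyte and mast cell list that holds both genes did not follow them, with a median deviation over 14 probesets of -0.11 in CBA replicate 3, the lowest of the 10 mice, and Mpo, Elane and Hdc, which mark granulocytes and mast cells, had 3.81, 5.28 and 5.13 there, each also the lowest of the 10 on its tested probeset. Gbp2, an interferon-induced GTPase, reached 8.96 and 9.13 on its 2 probesets there, against at most 4.95 and 5.06 elsewhere, and Saa3, an acute phase protein, 13.05 against at most 9.20. The granulocyte members Csf3r and Cxcr2 had 4.06 and 5.41 in CBA replicate 3, against 4.39 to 4.60 and 5.42 to 5.63 in the other CBA mice. The high 3′ to 5′ difference of this array is given above, and its part in these values was not tested.

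Promoters are shown for Cd3d, Cd3g, Ltb, Coro1a and Lyz2, which were chosen after their values were seen. These are among the 9 member genes that stood more than 1 log2 unit above every other mouse in QSi5 replicate 4. Ptprc, Cd52, Cd53 and Cd2 are not shown. Each promoter is the 250 bases before the annotated start, 5′ to 3′ on the strand of the gene, from RefSeq on GRCm38.p6. Capitals mark matches to an ETS family motif, GAGGAA, and a RUNX family motif, TGTGGT, searched on both strands, so that a match on the opposite strand reads TTCCTC or ACCACA. ETS and RUNX factors are known regulators of blood cell genes. The windows lie at chr9:44981536-44981785 for Cd3d, chr9:44980432-44980681 for Cd3g, chr17:35194257-35194506 for Ltb, chr7:126704817-126705066 for Coro1a and chr10:117282273-117282522 for Lyz2, on the plus strand for Cd3d and Ltb and on the minus strand for the others. Coro1a has 2 starts in the table, and 1 is shown.
Cd3d: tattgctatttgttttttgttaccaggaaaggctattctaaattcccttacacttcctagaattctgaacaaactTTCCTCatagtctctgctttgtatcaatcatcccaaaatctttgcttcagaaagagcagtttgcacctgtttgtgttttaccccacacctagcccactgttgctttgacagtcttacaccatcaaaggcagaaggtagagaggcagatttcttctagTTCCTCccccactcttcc
Cd3g: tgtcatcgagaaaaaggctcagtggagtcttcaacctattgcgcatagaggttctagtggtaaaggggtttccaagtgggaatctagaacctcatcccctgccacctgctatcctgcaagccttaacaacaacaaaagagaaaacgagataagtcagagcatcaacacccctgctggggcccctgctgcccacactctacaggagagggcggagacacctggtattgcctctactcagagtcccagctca
Ltb: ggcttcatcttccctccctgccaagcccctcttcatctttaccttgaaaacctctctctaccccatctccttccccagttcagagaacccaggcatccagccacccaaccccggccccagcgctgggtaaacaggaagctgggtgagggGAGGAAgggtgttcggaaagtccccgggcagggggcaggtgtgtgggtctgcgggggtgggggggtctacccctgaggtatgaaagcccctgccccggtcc
Coro1a: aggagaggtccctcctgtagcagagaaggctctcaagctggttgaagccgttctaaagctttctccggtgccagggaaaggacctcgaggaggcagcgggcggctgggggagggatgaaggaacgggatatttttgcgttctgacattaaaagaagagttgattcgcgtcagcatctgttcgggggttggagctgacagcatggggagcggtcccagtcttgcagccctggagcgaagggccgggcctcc
Lyz2: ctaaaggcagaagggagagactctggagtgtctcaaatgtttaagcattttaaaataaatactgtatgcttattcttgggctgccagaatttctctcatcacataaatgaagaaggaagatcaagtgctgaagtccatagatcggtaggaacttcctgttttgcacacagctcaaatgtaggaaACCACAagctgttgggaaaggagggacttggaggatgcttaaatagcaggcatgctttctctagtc

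Cd3d and Cd3g are divergent neighbours whose starts lie 1355 bases apart. In the windows shown, Cd3d held 2 ETS matches, Ltb 1 ETS match and Lyz2 1 RUNX match, while Cd3g and the shown start of Coro1a held neither. The shares count a gene where any of its starts in the table had a match. Of the 29 member genes with a window in the table, 17 held the ETS motif, or 58.6%, against 25.9% of 27025 genes, and 8 the RUNX motif, or 27.6%, against 15.9%. The ETS share was 7 of 12 lymphoid, 7 of 12 myeloid and 3 of 5 pan-leukocyte genes, and the RUNX share 5 of 12, 2 of 12 and 1 of 5. A match is a string of letters and was not tested as a binding site, and these genes include ones that followed QSi5 replicate 4 and ones that did not.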

How the data were processed

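RNA of 5 QSi5 and 5 CBA glands was measured on Affymetrix arrays, and mice were grouped by the strain in the labels. The authors deposited log2 values made with RMA in the affy package on the probesets common to both chip types; versions are not given in the sources used here. There were 0 columns that belonged to no sample.

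The members and gene lists were chosen with earlier results of these data known. Probesets were tested where the unlogged mean of the log2 values exceeded 20 in at least 1 strain, as in the methods, which left 11412 of 22626. Two-sided limma tests (version 3.58.1, R 4.3.3, moderated by eBayes) gave QSi5 minus CBA differences, adjusted by Benjamini-Hochberg over all probesets tested, with a threshold of 0.05. The fit was tested on simulated data. P-values measure the spread between mice, and the number of arrays limits the precision. Intensities are compared within a probeset and not between probesets.

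Values in every mouse are given for the 2 brightest and the 2 most variable tested genes of each class and for members with a mouse far from its strain. Others named by mouse (Nkg7, Msr1, Mpeg1 and genes of no member list, such as Ms4a4b, Gbp2, Saa3 and Lyz1) were chosen after their values were seen. Alternatives changed the filter, normalization, chips, block, variance model and test, and left out each mouse; the t-test is the one the methods name for qRT-PCR. Ccl21a was not analysed here.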

Additional observations from a re-analysis of the deposited data

Results flagged for a closer look

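A value was singled out where the gap between the highest or lowest mouse of a strain and its neighbour was a large part of that strain's range (Dixon's criterion at the 95% level, 0.71 for 5 mice). Chance alone gives about 1 in 20 such groups. Among the 102 strain groups of the member probesets 20 met it, or 19.6%, against 6.87% over all probesets, and 14 of the 20 were high values of QSi5 replicate 4.

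In QSi5 replicate 4 the lymphoid genes were Cd3d (6.089), Cd3g (5.106), Cd2 (4.628), Cd5 (4.116), Ltb (7.068) and Ccr7 (4.5). The pan-leukocyte values were those of Ptprc (8.098), Coro1a on 2 probesets (8.035 and 8.39), a dim Laptm5 probeset (6.346), the dimmer Lcp1 probeset (6.337), Cd52 (8.673) and Cd53 (6.417), and the myeloid one was Lyz2 (8.718). CBA replicate 3 was high for Adgre1 (6.394), Fcgr3 (4.759), Ptprc (5.557) and the dim Laptm5 probeset (6.1). The other 2 were low values, of Zap70 in QSi5 replicate 1 (5.67) and of Cd68 in CBA replicate 5 (2.606).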

How the results depend on the processing

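No member probeset of any class passed an adjusted p of 0.05 under any of 24 alternatives, 10 of which left out 1 mouse. The lowest adjusted p over the 21 tested genes was 0.167, for Coro1a without QSi5 replicate 4 and CBA replicate 3, an alternative chosen after seeing the data. With no filter, 51 member probesets were tested and 1 had an unadjusted limma p under 0.05 (Nkg7, 0.0421, adjusted p = 0.422). Over all probesets, 2526 of 22626 had an unadjusted p under 0.05 in the same unfiltered test. A filter on the mean of unlogged values, also chosen after seeing the data, added Cd3d (adjusted p = 0.448), Ltb (0.724) and a Laptm5 probeset (0.872).

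Over all probesets the 336 calls became 146 on MOE430 2.0 chips alone, 65 on MOE430A 2.0 chips alone, where fewer mice enter, and 205 by the methods' t-test. Leaving out 1 mouse gave 215 to 415, with 215 without QSi5 replicate 3 and 221 without QSi5 replicate 5. The median myeloid difference was -0.033 on MOE430A 2.0 chips and the median pan-leukocyte difference 1.16 on MOE430 2.0 chips. A replicate block gave 260 calls and 0 member calls. Same-numbered mice deviated together, with a correlation over 0.1, in 1 of 5 pairs, so the numbers were not taken as pairs.

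No member difference had passed, so none that passed could turn. The cause of the signs that turned was not tested. On MOE430A 2.0 chips alone they turned for Csf1r (-0.17), Lyz2 (-0.30), Mpeg1 (-0.065), Ptprc (-0.36), Laptm5 (-0.15) and Cd52 (-0.15). On MOE430 2.0 chips alone they turned for Gzma (0.17), Adgre1 (0.084), Fcer1g (-0.0040) and Lcp1 (0.37). Array weights turned Gzma (0.054), Adgre1 (0.028) and Fcer1g (-0.028), median centring Fcer1g (-0.0033) and a second quantile normalization Adgre1 (0.0079). Without both mice the turned signs were those of Cd3e (-0.041), Gzma (0.12), Adgre1 (0.074), Fcer1g (-0.020) and Lcp1 (0.015). With 1 mouse left out the ranges were -0.12 to 0.10 for Gzma, -0.057 to 0.069 for Adgre1, -0.039 to 0.060 for Fcer1g, -0.016 to 0.18 for Mpeg1, -0.052 to 0.20 for Aif1, -0.046 to 0.34 for Laptm5 and -0.39 to 0.17 for Lcp1.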
